A study of Mus musculus with 2 samples.

Results

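The 10 genes here, which glia switch on when they become reactive, were examined in DNase-seq of the aged mouse cortex: Lcn2, Serpina3n, C4b, C3, Vim, Cd44, Stat3, Osmr, Lyz2 and Cst7. They were chosen by name, and all 10 were found among the 21938 protein-coding genes of GENCODE M21 on the mm10 build. DNase-seq cuts DNA where it is free of nucleosomes and sequences the cut sites, so a peak marks an accessible stretch and not the amount of transcript. Left cerebral cortex was taken from female B6CASTF1/J mice, the first-generation cross of C57BL/6J and CAST, aged 18 to 20 months. There was 1 group with 2 libraries, numbered here as the labels number their biological replicates. One donor identifier stands on both and separate animals are not stated, so their spread may be technical. No younger or treated samples were analysed here, so the values describe the old cortex and hold no change with age.

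Astrocytes and microglia react to injury, infection and ageing with a shared programme. In one well known arm, cytokines of the interleukin-6 family, among them oncostatin M, bind receptors that pair with the gp130 chain and activate Janus kinases, which phosphorylate the transcription factor STAT3. In astrocytes STAT3 then drives genes of the intermediate filaments and of secreted acute-phase proteins, while microglia and astrocytes supply complement proteins that tag synapses and debris for removal. Microglia near plaques or damaged myelin also raise lysosomal proteins.

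Both libraries held a promoter peak at 4 of the 10 genes, namely Stat3, Vim, Serpina3n and C4b. A promoter peak is a peak of the longer deposited list within 500 bases of any annotated start of the gene. Among all protein-coding genes 63.6% had one in both libraries. Osmr had one in library 1 alone (3.74% of all protein-coding genes were open in 1 library only), and Lcn2, C3, Cd44, Lyz2 and Cst7 had none in either, beside 32.6% of all protein-coding genes with none. By library the members' counts were 5 and 4, beside 64.5% and 66.5% of all genes. The median promoter signal, counting genes without a peak as 0, was 0.187 in library 1 and 0 in library 2 for the members, and 1.31 and 1.55 for all protein-coding genes. The signal is the authors' value per peak, without a stated normalization. In whole cortex, fewer cells with an open site and a weaker opening in each cell cannot be told apart.

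**Figure D1:**
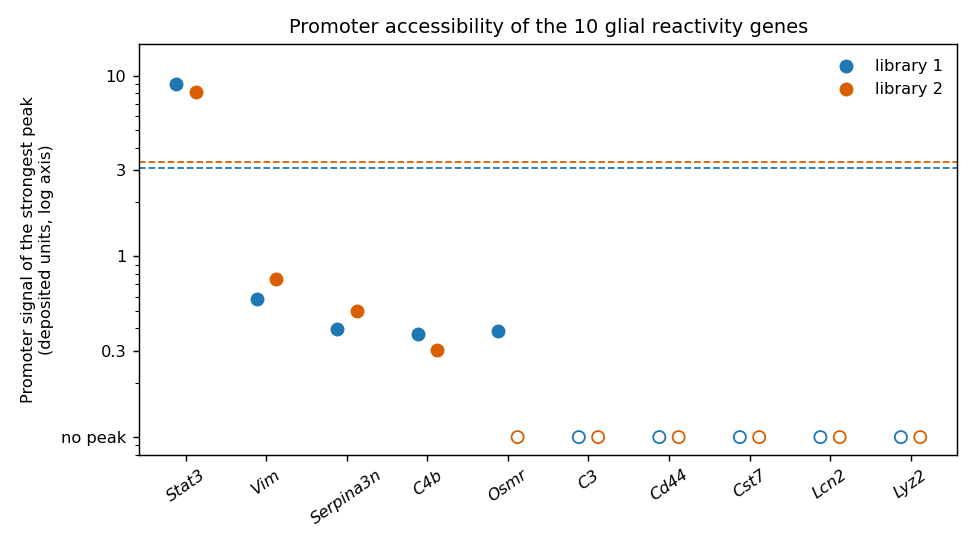
Promoter signal (deposited units, log axis) of each gene in library 1 (blue) and library 2 (orange), with open circles at the bottom for no peak and dashed lines at the median of all open protein-coding promoters of that library. Stat3 lies at 8.96 and 8.16, above both lines, while Vim, Serpina3n, C4b and Osmr lie below 0.75.

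The order of the promoters was the same in both libraries for the 4 genes with a peak in each. Stat3 stood at 8.56 ± 0.569 (SD, n = 2), Vim at 0.662 ± 0.119, Serpina3n at 0.447 ± 0.0741 and C4b at 0.338 ± 0.0510. The ranges of neighbours in this order did not overlap, but in library 1 Serpina3n (0.395), Osmr (0.388) and C4b (0.374) lay closer together than the SD of either Serpina3n or C4b. Ranked by signal among the open promoters of each library, Stat3 was at percentile 97.1 in library 1 and 96.2 in library 2, and Vim at 7.69 and 11.3. Serpina3n was at 3.29 and 6.02 and C4b at 2.80 and 1.72, so these 3 promoters lay in the lower tail of the open ones. In the shorter deposited peak lists, Stat3 was the only member with a promoter peak in both libraries, beside 59.5% of all protein-coding genes. It was also the only one whose promoter peak exceeded the median signal of all peaks in each library, beside 58.1% of all genes.

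Stat3, the transcription factor of the pathway (chromosome 11, 100885098 to 100939540, minus strand), had its strongest peak across its 5′ end. The peak reached a signal of 8.96 in library 1 and 8.16 in library 2, above 99.7% and 99.6% of all peaks of its library. It held 6 footprints in library 1 and 5 in library 2, where a footprint is a short stretch of low cutting inside open DNA, as left by a bound protein. The 260 bases upstream of the start are shown because footprints of both libraries, printed in capitals, take up 119 of them. The stretch lies at chr11:100939541-100939800, minus strand, mm10:
Stat3 promoter: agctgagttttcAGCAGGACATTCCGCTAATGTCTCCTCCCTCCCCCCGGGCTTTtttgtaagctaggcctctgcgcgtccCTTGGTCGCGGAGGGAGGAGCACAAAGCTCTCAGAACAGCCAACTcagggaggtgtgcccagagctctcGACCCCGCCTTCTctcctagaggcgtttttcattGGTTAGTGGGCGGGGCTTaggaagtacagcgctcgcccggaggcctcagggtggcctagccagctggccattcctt
The GC box GGGCGG, a letter pattern that factors of the SP and KLF families recognise, occurred once in the middle 200 bases of this region and all 6 of its letters lay in footprints of both libraries. A match of this kind is a letter pattern and no proof of binding, and 14.5% of all 165201 merged regions held 1 or more in a window of that length. A match to CAGCTG, an E-box, lay nearby and outside the footprints of both libraries.

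Inside Stat3 there were 3 further regions with a peak in both libraries, and the stronger ones lay at 45.92 and 41.42 kb from the 5′ end. The first overlapped a coding exon (chr11:100893521-100893720), with a signal of 1.82 in library 1 and 2.67 in library 2. The other lay in an intron (chr11:100898001-100898240), with 1.03 and 0.937. They are counted as promoter peaks here because other annotated Stat3 transcripts start 23 and 288 bases away. The weakest, 0.66 kb into the gene, had 0.381 and 0.413. The log2 ratio of library 2 over library 1 was 0.55 for the first, more than 1 SD (0.40) from the median of 0.09 over all 99347 matched pairs of peaks. In all, the Stat3 promoter windows held 16 footprints in library 1 and 18 in library 2.

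Osmr, the receptor chain that binds oncostatin M together with gp130 (chromosome 15, 6813577 to 6874969, minus strand), had little accessibility at its starts. Its promoter peak in library 1 had a signal of 0.388, and library 2 listed no peak in the promoter windows and no base there at a false discovery rate below 0.05. The more accessible sites lay upstream. At position -7.40 kb, counted from the 5′ end, the signal was 1.00 in library 1 and 0.937 in library 2, and at -9.06 kb it was 0.973 and 1.40. Both libraries called both sites, and no other annotated gene start lay nearer to them than that of Osmr. They are printed for that reason, with bases in footprints of both libraries in capitals, on the minus strand of chr15:6882281-6882460 and chr15:6883941-6884120:
Osmr upstream site at -7.40 kb: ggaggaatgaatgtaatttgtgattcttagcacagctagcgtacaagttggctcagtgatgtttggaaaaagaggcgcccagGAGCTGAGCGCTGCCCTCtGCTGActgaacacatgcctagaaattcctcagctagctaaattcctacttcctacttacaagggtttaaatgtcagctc
Osmr upstream site at -9.06 kb: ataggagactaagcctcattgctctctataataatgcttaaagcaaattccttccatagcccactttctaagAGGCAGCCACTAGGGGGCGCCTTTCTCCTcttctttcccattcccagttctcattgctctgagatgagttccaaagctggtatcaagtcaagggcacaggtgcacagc
The footprints common to both libraries covered 23 bases of the first and 29 of the second. Neither site held a match to any of the 10 searched patterns in the 200 bases around its middle. Patterns of other factors were not searched, so the footprints here may hold some.

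Vim, which encodes the intermediate filament protein vimentin (chromosome 2, 13573927 to 13582826, plus strand), had a broad but weak accessible stretch at its starts and a stronger site inside the gene. Library 1 listed 4 peaks within 500 bases of the starts with signals of 0.361 to 0.578, and library 2 listed 2, of 0.746 and 0.506. The bases with a false discovery rate under 0.05 in the promoter windows numbered 704 of 2598 in library 1 and 1463 in library 2, and those under 0.001 numbered 15 and 1058. At 1.79 kb into the gene (chr2:13575621-13575820, an exon annotated neither as coding nor as untranslated) the signal was 1.53 in library 1 and 1.23 in library 2, higher than at any start in either library. The upstream part of the promoter peak, chr2:13573801-13573926, and the site inside the gene are shown for contrast, both on the plus strand with shared footprint bases in capitals:
Vim promoter: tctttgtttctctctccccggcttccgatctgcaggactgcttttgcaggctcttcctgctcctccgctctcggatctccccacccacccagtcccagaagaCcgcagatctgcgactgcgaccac
Vim site at 1.79 kb: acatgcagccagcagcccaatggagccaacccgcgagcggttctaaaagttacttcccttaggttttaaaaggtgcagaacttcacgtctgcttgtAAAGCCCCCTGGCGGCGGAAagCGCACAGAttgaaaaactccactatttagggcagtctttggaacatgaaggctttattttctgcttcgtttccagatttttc
Footprints of both libraries shared 1 base of the printed promoter stretch and 28 bases of the site inside the gene. Upstream of these, at chr2:13573590-13573780, a peak was listed in library 1 alone (signal 0.470), although in library 2 all 191 bases had a false discovery rate below 0.05 and 131 below 0.001. It held 2 matches to TGANTCA, the pattern of AP-1 factors, and no footprint covered either.

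Cd44, the cell surface receptor for hyaluronan (chromosome 2, 102811141 to 102901665, minus strand), had no promoter peak in either library. Its strongest site lay in an intron, 72.27 kb from the 5′ end (chr2:102829301-102829480), with a signal of 1.37 in library 1 and 1.70 in library 2. The nearest annotated start to this site was that of the neighbouring gene Slc1a2, 68128 bases away, and the nearest Cd44 start was 71866 bases away. The other Cd44 sites were weaker, between 0.271 and 0.565. Of the 7 merged regions in the Cd44 window, 4 were in both libraries and 3 in library 1 alone. The intron site and the promoter are printed side by side, the site with shared footprint bases in capitals and the promoter, from the RefSeq table of build GRCm38.p6 (chr2:102901666-102901915, minus strand), with CG pairs in capitals:
Cd44 intron site: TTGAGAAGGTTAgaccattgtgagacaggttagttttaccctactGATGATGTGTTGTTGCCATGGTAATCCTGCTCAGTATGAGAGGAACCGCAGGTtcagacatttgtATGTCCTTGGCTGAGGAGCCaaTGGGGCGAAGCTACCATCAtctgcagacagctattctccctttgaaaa
Cd44 promoter: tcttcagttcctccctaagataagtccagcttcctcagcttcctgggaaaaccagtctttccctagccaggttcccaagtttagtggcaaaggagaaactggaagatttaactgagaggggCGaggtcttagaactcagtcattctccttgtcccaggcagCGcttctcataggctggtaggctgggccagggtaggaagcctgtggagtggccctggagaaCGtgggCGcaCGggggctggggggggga
Footprints of both libraries covered 104 of the 180 bases of the intron site. None of the 10 searched patterns matched there, and patterns of other factors were not searched. In the promoter windows of Cd44, library 1 listed no base below a false discovery rate of 0.05, and library 2 listed 21 bases, the lowest at 0.0429.

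Serpina3n, a secreted inhibitor of serine proteases (chromosome 12, 104406729 to 104414329, plus strand), had a weak peak at its start and 2 stronger sites beyond its 3′ end. At the start the strongest signal was 0.395 in library 1 and 0.499 in library 2. At 9.05 kb from the start (chr12:104415641-104415920) it was 2.07 and 1.62, and at 11.97 kb (chr12:104418601-104418800) 1.67 and 2.13. Both downstream sites exceeded the promoter in each library. Between the libraries the 2 sites moved in opposite directions, with log2 ratios of library 2 over library 1 of -0.36 and 0.35. The first was more than 1 SD from the median of all pairs and the second was not. Of the 24 matched pairs of all members 17 lay within 1 SD. The nearest annotated start to either was that of the small nucleolar RNA gene Gm24334, 3480 and 600 bases away. The upstream part of the promoter peak (chr12:104406605-104406728) and both downstream sites are printed on the plus strand, with bases in footprints of both libraries in capitals:
Serpina3n promoter: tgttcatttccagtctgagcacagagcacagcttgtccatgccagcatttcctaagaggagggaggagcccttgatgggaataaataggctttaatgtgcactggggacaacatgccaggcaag
Serpina3n site at 9.05 kb: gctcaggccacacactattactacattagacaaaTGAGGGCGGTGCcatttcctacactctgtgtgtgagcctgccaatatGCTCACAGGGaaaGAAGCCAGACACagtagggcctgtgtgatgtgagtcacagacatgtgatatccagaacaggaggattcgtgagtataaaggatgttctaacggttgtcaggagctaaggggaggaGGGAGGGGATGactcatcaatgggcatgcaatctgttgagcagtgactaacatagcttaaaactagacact
Serpina3n site at 11.97 kb: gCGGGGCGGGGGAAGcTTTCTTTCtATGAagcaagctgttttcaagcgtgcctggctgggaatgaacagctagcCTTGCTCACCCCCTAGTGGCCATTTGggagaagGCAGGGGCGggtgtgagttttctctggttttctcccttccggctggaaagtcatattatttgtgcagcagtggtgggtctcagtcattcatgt

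The site at 11.97 kb held the only match to TTCNNNGAA, the palindromic pattern of STAT factors, among the 43 merged regions of the 10 genes. The match, ttctatgaa at chr12:104418622-104418630, had 8 of its 9 bases in footprints in each library. The pattern occurred in the 200 bases around the middle of 5.99% of all merged regions. The same site held 2 matches to GGGCGG, at chr12:104418604-104418609 and chr12:104418712-104418717, with all 6 letters in footprints of both libraries for the first and 6 and 5 letters for the second. The site at 9.05 kb held 2 matches to TGANTCA, with 2 bases in footprints in library 1 and 0 in library 2 for one (chr12:104415765-104415771) and 2 and 4 bases for the other (chr12:104415859-104415865). Footprints of both libraries covered 61 bases of the site at 11.97 kb, 45 of the site at 9.05 kb and 0 of the printed promoter stretch.

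Lcn2, which encodes the iron-siderophore carrier lipocalin 2 (chromosome 2, 32384633 to 32388252, minus strand), had no peak in its gene body and none at its 6 annotated starts in either library. None of its 2640 promoter bases fell below a false discovery rate of 0.05 in either library. All 10 peaks of library 1 and all 8 of library 2 in its window lay outside the gene, and the strongest were at starts of neighbours. The peak over a start of 1110008P14Rik (chr2:32381841-32382120) had a signal of 4.12 in library 1 and 4.98 in library 2. The regions at Ptges2, a prostaglandin E synthase, had 4.03 and 4.69 at chr2:32396061-32396340 and 2.74 and 3.24 at chr2:32395481-32396000. At Ciz1, a zinc finger protein of DNA replication, a weaker peak of 0.919 lay over a start in library 1, and in library 2 peaks of 0.586 and 1.03 lay 53 and 172 bases from it. The window count of Lcn2 was at percentile 99.3 in library 1 and 93.3 in library 2 when set against the 200 protein-coding genes closest to it in span, and none of the counted peaks touched Lcn2 itself. The promoter of Lcn2, with its CG pairs in capitals, is printed as a start without a peak, from the RefSeq table, whose start lies inside the GENCODE span (chr2:32387798-32387989, minus strand, GRCm38.p6):
Lcn2 promoter: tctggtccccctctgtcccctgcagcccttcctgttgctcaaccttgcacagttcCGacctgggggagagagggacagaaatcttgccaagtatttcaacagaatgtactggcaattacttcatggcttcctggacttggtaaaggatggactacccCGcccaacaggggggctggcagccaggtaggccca

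**Figure D2:**
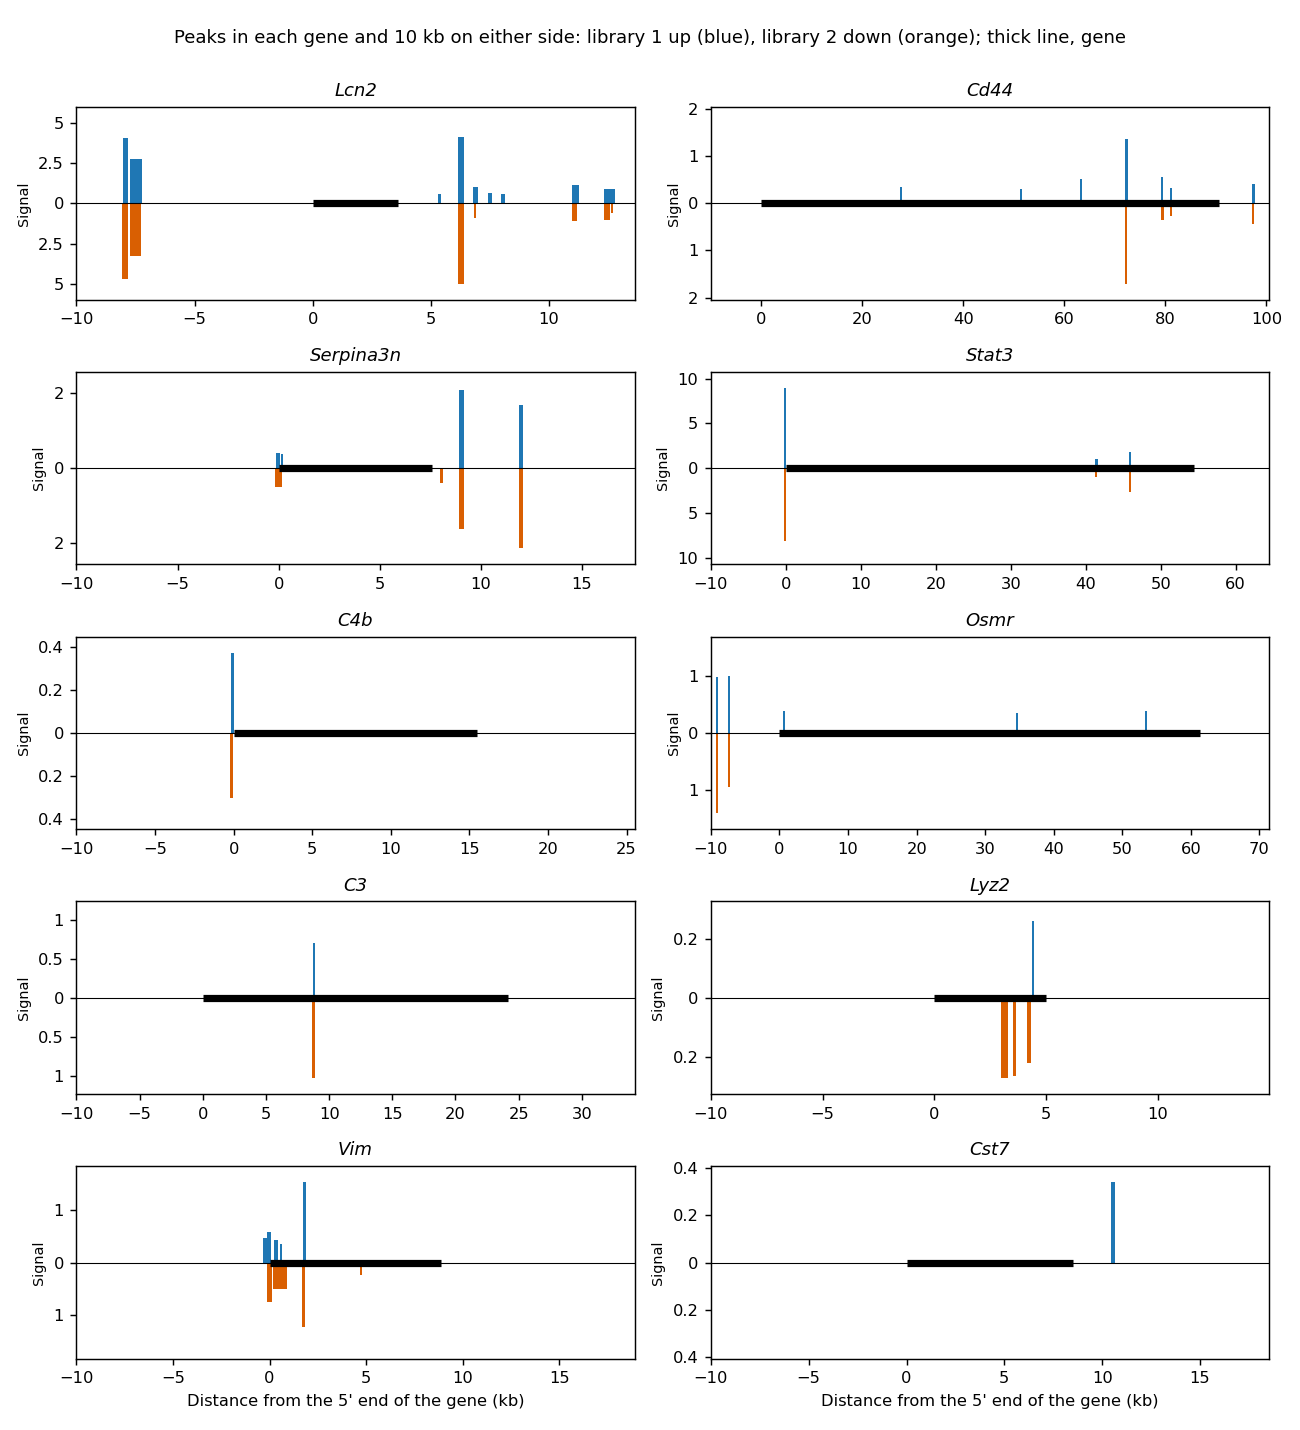
Peaks in each gene and 10 kb on either side, plotted by distance from the 5′ end of the gene in kb (gene read left to right, thick line) against signal, library 1 upward in blue and library 2 downward in orange, with its own signal scale per gene. The peaks around Lcn2 flank an empty gene, Serpina3n has its tall peaks beyond the 3′ end, and Stat3 has its tallest at the 5′ end.

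The complement genes C4b and C3 each had 1 peak per library in the whole gene and its flanks. C4b, a component of the classical pathway (chromosome 17, 34728380 to 34743882, minus strand), had that peak at its start, with a signal of 0.374 in library 1 and 0.302 in library 2, higher than only 19.3% and 11.4% of all peaks. The lowest false discovery rate there was 0.00169 in library 1 and 0.0018 in library 2, and neither peak was in the shorter list. C3, the protein on which all complement pathways converge (chromosome 17, 57203970 to 57228136, minus strand), had its peak in an intron, 532 bases from the nearest annotated C3 start and 8.78 kb from the 5′ end. The signal was 0.708 in library 1 and 1.03 in library 2, a log2 ratio of 0.54 that was also more than 1 SD from the median of all pairs, and both shorter lists held it. The C3 counts were at percentiles 14.3 and 13.8 among genes of nearest span, and those of C4b at 16.5 and 15.3. The upstream part of the C4b peak (chr17:34743883-34744087) and the C3 intron site (chr17:57219281-57219440) are printed on the minus strand with shared footprint bases in capitals:
C4b promoter: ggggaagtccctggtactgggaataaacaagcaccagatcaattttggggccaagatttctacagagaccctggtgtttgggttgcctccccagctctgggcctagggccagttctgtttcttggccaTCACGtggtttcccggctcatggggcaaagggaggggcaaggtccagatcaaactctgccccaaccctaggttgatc
C3 intron site: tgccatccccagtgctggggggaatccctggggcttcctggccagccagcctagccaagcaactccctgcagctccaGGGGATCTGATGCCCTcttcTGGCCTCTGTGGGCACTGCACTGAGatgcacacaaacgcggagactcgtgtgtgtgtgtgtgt
Footprints of both libraries shared 5 bases at C4b and 41 at C3. The C3 site held 1 match to the pattern of NF-kB, gggattcccc at chr17:57219413-57219422, with 6 of its 10 letters in footprints of library 1 and 0 in library 2. The Stat3 intron region at 41.42 kb held matches as well, in part within footprints of library 2. The pattern was thus found for 4.65% of the member regions, beside 4.53% of all merged regions.

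C4b lies in a duplicated stretch of chromosome 17 with its near-copy C4a. Of the 32-base words of the C4b gene and its flanks, 41.1% occurred elsewhere in the mm10 chromosomes, and 35.6% of those within 500 bases of its 5′ end did. The next highest member by this measure was Lyz2, at 24.9% of the window and 35.4% of the gene body, followed by Vim with 15.2% of the window, and the other 7 were between 2.76% and 13.7%. The sources used here do not give how reads with several possible places were treated, and the part of this in the low values of C4b and Lyz2 was not tested. C4a itself had no promoter peak in either library, nor did any of the 9 other Serpina3 genes listed, nor Lyz1.

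Lyz2 and Cst7, which encode the myeloid lysozyme and the cathepsin inhibitor cystatin F of activated microglia, had the lowest strongest peak of the 10 in each library. Lyz2 (chromosome 10, 117277331 to 117282321, minus strand) had 1 peak in library 1, of signal 0.259, and 3 in library 2, of 0.222 to 0.271. None of these overlapped between libraries, and all lay in the gene, 2985 bases or more from its start. They exceeded only 5.72% of all peaks in library 1 and 3.57 to 7.87% in library 2. In its window the lowest false discovery rate was 0.0413 in library 1 and 0.00425 in library 2. Cst7 (chromosome 2, 150570415 to 150578944, plus strand) had a single peak of 0.340 in library 1, beyond its 3′ end, and none in library 2, as did 15.6% of all protein-coding genes in that library. Library 2 listed no base under 0.05 in the whole Cst7 window of 28530 bases. Of the microglial markers, P2ry12, a purinergic receptor, and Csf1r, a growth factor receptor, had no promoter peak in either library. The part of microglial abundance in the values of Lyz2 and Cst7 was not tested. The promoter of Lyz2 is printed as a second start without a peak, with its CG pair in capitals (RefSeq, chr10:117282322-117282522, minus strand, GRCm38.p6):
Lyz2 promoter: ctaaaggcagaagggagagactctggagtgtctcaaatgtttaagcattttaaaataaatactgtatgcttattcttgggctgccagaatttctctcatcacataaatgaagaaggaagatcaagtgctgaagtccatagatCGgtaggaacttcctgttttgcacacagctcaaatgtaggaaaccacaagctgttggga

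Footprints followed the peaks at the promoters. The same 4 genes, Stat3, Vim, Serpina3n and C4b, had a footprint in a promoter window in both libraries, beside 61.5% of all protein-coding genes, and Osmr had 1 in library 1. By library this made 5 and 4 members, beside 62.4% and 64.7% of all genes. The counts in the promoter windows were 16 and 18 at Stat3, 3 and 7 at Vim, 3 and 4 at Serpina3n and 2 and 2 at C4b. The windows differed in size, so these counts do not rank the genes by footprint density. Stat3, with 14 annotated starts, had 8759 window bases, C4b 3003 and Vim 2598. Serpina3n, with 1 start, had the fewest of these 4 genes. The per-base rates gave the same 4 genes at a false discovery rate under 0.05 in both libraries (64.4% of all genes). By library there were 5 members in library 1, with Osmr, and 6 in library 2, with C3 and Cd44, beside 65.4% and 67.2%. At 0.001 the members in both were 2, Stat3 and Vim, beside 60.3% of all genes. By library there were 2 and 4, the latter with Serpina3n and C3, beside 61% and 62.9%. At Serpina3n the lowest rate was 0.00826 in library 1 and 0.000355 in library 2, so only library 2 passed the stricter value. At C3, 18 bases in library 2 and none in library 1 reached into a promoter window.

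**Figure D3:**
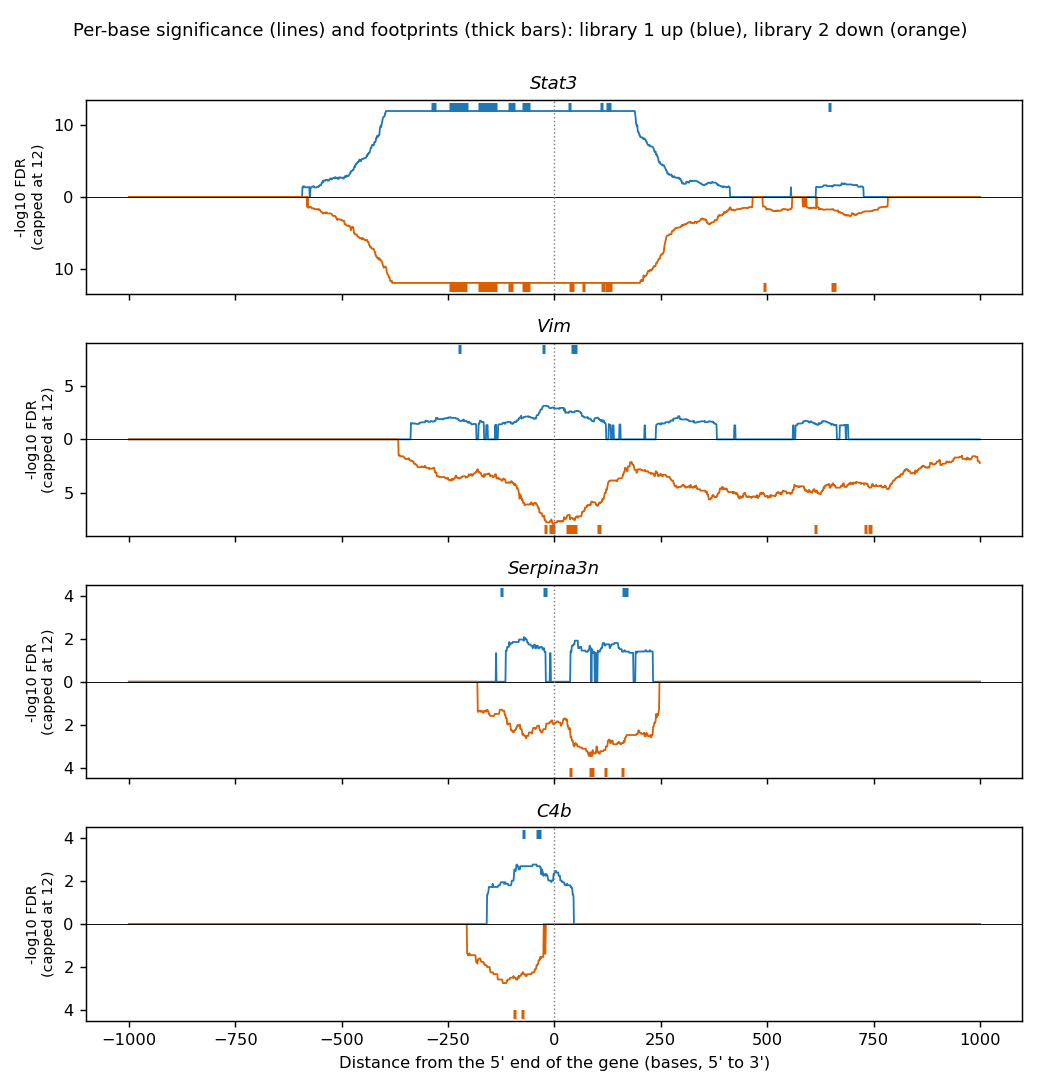
Significance of the cut rate per base (−log10 of the false discovery rate, capped at 12, 0 where no value is listed) within 1000 bases of the 5′ end, library 1 upward in blue and library 2 downward in orange, with footprints as thick bars at the edges. Stat3 reaches the cap in both libraries, Vim is wider and higher in library 2 than in library 1, and Serpina3n and C4b stay low in both.

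Base composition separated Stat3 from the other members. Within 500 bases of the 5′ end, Stat3 had a ratio of observed to expected CG pairs of 0.661 and a GC content of 62.2%, and was the 1 member above the limits used here for a CpG-rich promoter (0.6 and 50%). Osmr passed the ratio (0.616) but not the GC content (46.95%), and Vim passed the GC content (56.6%) but not the ratio (0.529). The remaining ratios ran from 0.0746 at C3 to 0.338 at Cd44. In both libraries a promoter peak was present at 95.3% of all CpG-rich protein-coding genes and at 38.3% of the 12200 CpG-poor ones. Of the 9 CpG-poor members 3 had one, which is near the share of CpG-poor genes in general. Where CpG-poor genes had a promoter peak, its median was 1.84 in library 1 and 2.08 in library 2, and Vim, Serpina3n and C4b lay below this in both.

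For all 43 merged regions of the 10 windows, letter patterns were counted in the 200 bases around the middle of each. They stand beside those of all merged regions, with no test. In shorter regions these 200 bases run past the ends, so some matches lay outside the region itself. Among them were AP-1 matches at Cd44 and Lyz2 and C/EBP and E-box matches at Stat3 and Lyz2. Counted in this way, 8 regions had AP-1 matches (18.6%, beside 11.9% of all regions), some of them at starts of other genes beside Lcn2. E-box matches were found for 7 (16.3%, beside 17.6%) and GGGCGG for 7 (16.3%, beside 14.5%). The C/EBP pattern TTGCNNAA was found for 3 regions, beside 8.54% of all, and the STAT pattern for 1 (2.33%, beside 5.99%). The pattern of PU.1, a factor of the myeloid lineage, was found for 2 regions, beside 1.59%, and both were overlapping windows around the same match in Lyz2. No footprint covered it in either library.

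The median number of peaks around the members was close to that around all protein-coding genes, while the median number of footprints was lower. Footprints numbered 5.5 in library 1 and 3 in library 2 at the median, beside 10 and 12 for all protein-coding genes. Over the gene and 10 kb on either side the members had a median of 4.5 peaks in library 1 and 3.5 in library 2, beside 4 and 4 for all protein-coding genes. The percentile among genes of nearest span was 69.5 and 66 for Serpina3n, 76.5 and 63.3 for Vim, 57 and 30 for Stat3, 39.8 and 13.8 for Cd44, and 38.8 and 10.3 for Osmr. It was 41.5 and 62 for Lyz2, 35.3 and 13.8 for Cst7, 16.5 and 15.3 for C4b and 14.3 and 13.8 for C3. Lcn2 had the highest percentile of the 10 in each library. Without peaks at promoters of other genes its count fell from 9 to 2.5, as a mean of both libraries.

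**Figure D4:**
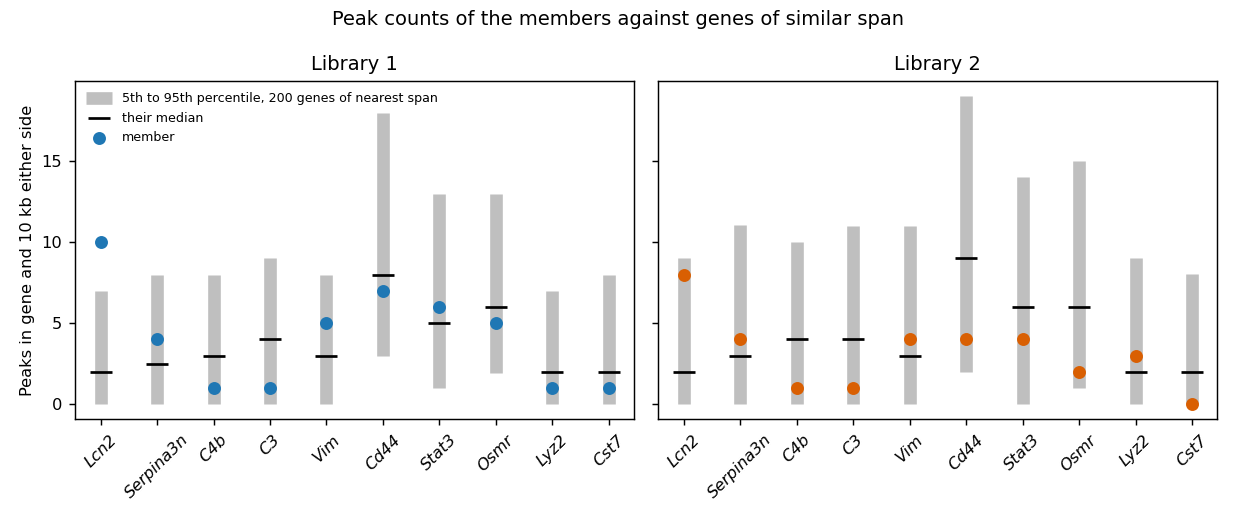
Peaks in each gene and 10 kb on either side (points; blue library 1, orange library 2) against the 200 genes closest in span (grey bar from the 5th to the 95th percentile, black dash at the median). Lcn2 is above its bar in library 1, with 10 peaks, and near the upper end in library 2, with 8, and the other 9 lie within the bars.

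The peaks of the 10 windows numbered 41 in library 1 and 31 in library 2, although library 2 had more peaks in all (139799 against 132054). Of these, 27 of library 1, or 65.9% (exact binomial 95% interval 49.4 to 79.9%), overlapped a peak of library 2, beside 77.8% of all library 1 peaks. In library 2 the count was 26, or 83.9% (66.3 to 94.5%), beside 73.2%. Both intervals, which cover the counting of peaks only, include the value of all peaks. After merging, 24 of 43 regions were in both libraries (60% of all merged regions), 14 in library 1 alone and 5 in library 2 alone. The regions of library 1 alone had signals of at most 0.660 and those of library 2 alone of at most 0.388, while the shared ones had a median of 0.978. Of 24 matched pairs of peaks none differed by more than 2-fold between libraries, beside 1.59% of all pairs. Their log2 ratios lay within 1 SD of the median of all pairs for 17 and within 2 SD for 23. The widest difference was at a coding exon of Cd44 (0.565 in library 1 and 0.345 in library 2), a log2 ratio of -0.71.

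Around these 10 genes, the genes of oncostatin and STAT3 signalling had the highest median promoter signal of 6 related sets in each library. Of 18 genes of this set 15 had a promoter peak in both libraries, and the medians were 2.11 in library 1 and 2.65 in library 2. Jak1, a Janus kinase of the pathway, stood at 5.74 and 5.22, and Il6st, which encodes gp130, at 4.52 and 5.19. The 3 without a peak were the ligands Osm, Cntf and Clcf1, while the ligands Lif and Il6 had one, at 0.442 and 0.536 and at 2.31 and 3.51. Osm, Cntf, Lif and Il6 were named after their values were seen.

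Among 8 pan-reactive astrocyte genes, 5 were open in both libraries, with medians of 0.245 and 0.385. Gfap, the astrocyte filament protein, was highest at 1.25 and 1.66, then Timp1, an inhibitor of metalloproteinases, at 0.674 and 0.857, and Aspg had none. Of 12 genes of intermediate filaments and hyaluronan 8 had one, with Hmmr, a hyaluronan-binding protein of the mitotic spindle, at 5.24 and 4.29 and Synm, the filament protein synemin, at 2.74 and 4.10, and none at Has1, a hyaluronan synthase. Complement genes had one in 7 of 18 cases, with Cr1l, a complement regulator on the cell surface, at 2.82 and 3.11 and C2, a protease of the classical pathway, at 2.25 and 3.37, and none at C1qa. Of genes of disease-associated microglia 9 of 16 had one, led by the lysosomal cathepsins Ctsd, at 6.32 and 5.94, and Ctsb, at 3.16 and 3.32, with no peak at the chemokine gene Ccl6. Of 15 paralogs of the members 4 had one, the highest being Cst3, which encodes the widely expressed cystatin C, at 3.16 and 3.87, and Lifr, the receptor for leukaemia inhibitory factor, at 2.21 and 3.42. These counts stand beside the 63.6% of all protein-coding genes and were not tested.

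**Figure D5:**
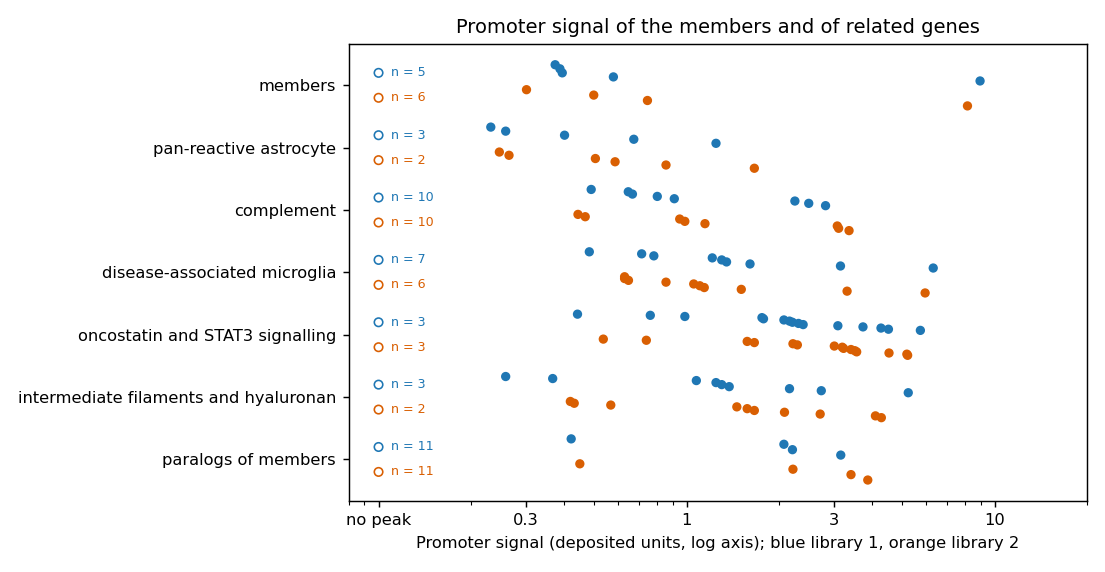
Promoter signal (deposited units, log axis) of the 10 members and of each related set, 1 point per gene with a promoter peak, library 1 in blue and library 2 in orange, with the number of genes without a peak beside the open circles at the left. Of the members 5 in library 1 and 6 in library 2 have none, against 3 and 3 in the oncostatin and STAT3 set of 18.

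The cell type markers gave the following background for the tissue. All 6 markers of excitatory neurons had a promoter peak in both libraries, as did 5 of 6 of astrocytes and 4 of 6 of inhibitory neurons. The count was 3 of 6 for leptomeningeal cells, 2 of 6 each for microglia, oligodendrocytes and endothelial cells and 0 of 6 for neutrophils and blood. Beside them stand 63.6% of all protein-coding genes, 95.3% of the CpG-rich and 38.3% of the CpG-poor ones. The part of base composition in these counts was not tested, and they do not measure the share of cell types. Among the astrocyte markers Slc1a2, the main glutamate transporter and the neighbour of Cd44 on chromosome 2, stood at 1.88 and 2.08, and Aqp4, the water channel of astrocyte endfeet, had no promoter peak. Slc1a2, Aqp4 and the microglial markers were named after their values were seen. The depth behind these values is unknown, since no read totals were used, and an absent peak means that none was called and not that the site is closed.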

How the data were processed

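DNase-seq of 2 libraries of 1 group was used. Per the deposited readme files, peaks, footprints and per-base false discovery rates on mm10 were derived from the alignments of each library alone. The sources used here do not name the aligner, the caller, the thresholds or the treatment of strain differences and of repeated sequence. The authors deposited the peak signal (column 7) with no normalization named. The deposited per-base tables hold q-values below 0.05 only, and every footprint carries a q-value of 0.01. The longer peak list was used.

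Genes and starts came from GENCODE M21, and sequences from GRCm38.p6, which shares the mm10 coordinates. Windows were 500 bases around every annotated start, and the gene with 10 kb on either side. Peaks were shared with 1 base of overlap and overlapping peaks were merged into regions. Matched pairs were each other's strongest overlapping peak. Patterns were searched on both strands in the 200 bases around the middle of each region, which run past the ends of shorter regions. They were TTCNNNGAA (STAT), TGANTCA (AP-1), GAGGAAGT (PU.1), TTGCNNAA (C/EBP), GGGCGG (SP/KLF), TGACGTCA (CREB), TGTGGTTT (RUNX), CAGCTG (E-box), and NFI and NF-kB by name. RefSeq promoters matched all members but C4b and were printed without annotated UTRs.

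There is no contrast, so values are given per library, as mean ± SD (n = 2) or as counts beside all protein-coding genes, with no test. The members and lists were chosen with earlier results of these data known. All members are named, with the 2 highest and the lowest promoter signals of each related set and neighbours with a start at a peak. Sequences were printed for the strongest promoter or gene body peak of 6 members, and the Serpina3n downstream, Osmr upstream and Vim inner sites and the RefSeq promoters were chosen after their values were seen. Python 3.11.15, pandas 2.3.3, numpy 2.4.6 and scipy 1.17.1 were used, and the overlap, pattern and word counts were tested on simulated data.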

Additional observations from a re-analysis of the deposited data

How the results depend on the processing

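The count of 4 members with a promoter peak in both libraries stayed within 4 to 5 with windows of 250 and 2000 bases, with the 5′-most start alone (added after the data were examined) and with each library alone. It fell to 1 in the shorter lists and also to 1 in peaks above the median signal. The median promoter signal, 0.0936 as a mean of both libraries, was 0.266 with 2000 bases, between 0 and 0.187 with each library alone, and 0 in the shorter lists, in peaks above the median signal and with the 5′-most start alone. The footprint count was 4 or 5 under every alternative run. The false discovery rate under 0.001 left 2 members in place of 4. The peaks in the windows, 36 as a mean, numbered 19.5 in the shorter lists, 18 above the median signal, 20 with a flank of 0 and 107.5 with a flank of 50 kb, and 31 to 41 with each library alone. Their shared percentage, 74.9 as a mean, was 94.4 above the median signal and 59.5 with an overlap of 50% of both regions. It has no value for a single library. Leaving out promoter peaks of other genes (added after the data were examined) gave 29.5 peaks and 69.6% shared. No pair was more than 2-fold apart in the shorter lists or with flanks of 0 and 50 kb. Of 50 values of the promoter signal of single members 42 moved by no more than 1 SD. Members without a promoter peak could not change where a setting only removes peaks, so this count does not measure stability. In the shorter lists and in peaks above the median signal C4b fell to 0, and Serpina3n and Vim moved in both. Osmr fell from 0.194 to 0 in the shorter lists, which lay within its SD of 0.274. Peak counts of single windows were judged by a fold limit that did not use the SD. Of 50 such values 31 moved beyond that limit, in all 10 genes. No paired analysis was possible because there is only 1 group. The unknown depth limits every absence.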
